A study of Mus musculus with 9 samples.

Results

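The receptors for glutamate and GABA, the main fast excitatory and inhibitory transmitters of the brain, were followed here as 1 set of genes. Members were chosen by symbol, which took in the AMPA, kainate, NMDA, delta and metabotropic glutamate receptor genes and the GABA-A and GABA-B receptor genes. The table held 46 such genes in 67 transcripts, out of 23798 genes in 33299 transcripts. There were 26 glutamate receptor genes and 20 GABA receptor genes, and 31 of the 46 had a single transcript. The mice were of the genotype labelled TG given NM-101, of the genotype TG given placebo, or wild type (WT) given placebo, with 3 RNA samples in each group. The series title names alpha-synuclein that comes from neurons and its effects in oligodendrocytes, and all 9 samples are labelled as oligodendrocytes of the brain, with RNA taken by an extraction kit meant for paraffin-embedded, fixed tissue. The labels do not say what the TG allele is, which promoter drives it, what NM-101 is, how old the mice were, or that the samples came from separate animals. The p-values given here therefore rest on sample-to-sample spread that could be technical.

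AMPA receptors (Gria genes) carry most fast excitation, kainate receptors (Grik genes) carry a slower component and tune release, and NMDA receptors (Grin genes) pass calcium when glutamate binds while the membrane is depolarised. The delta receptors (Grid genes) act as synaptic organisers that bind cerebellins, and metabotropic receptors (Grm genes) act through G proteins. GABA-A receptors (Gabr genes) are chloride channels built of alpha, beta and gamma or delta subunits, and GABA-B receptors (Gabbr genes) are G protein coupled dimers. These genes are best known in neurons, while astrocytes and cells of the oligodendrocyte lineage also express some of them. Many GABA-A subunit genes lie in clusters that hold alpha, beta and gamma genes side by side.

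In the mouse build GRCm38 a cluster on chromosome 5 held Gabrg1 at chr5:70751047-70842617, Gabra2 at chr5:70958392-71095849, Gabra4 at chr5:71569734-71658308 and Gabrb1 at chr5:71657921-72149572. Gabrg3 at chr7:56716463-57387215 and Gabra5 at chr7:57407669-57591016 were neighbours on chromosome 7, and Gabrb2 lay at chr11:42419515-42632591. The chromosome 5 promoters are printed because Gabrb1 had the smallest p of all the receptor genes between the TG groups and shares its cluster with Gabra2, which had the third smallest. They come from RefSeq, assembly GRCm38.p6, each with 250 bases before and 50 after the start site, read 5′ to 3′ on the strand of the gene. Capitals mark the GC box GGGCGG or its reverse complement CCGCCC.
Gabrb1, chr5:71657671-71657970, plus strand: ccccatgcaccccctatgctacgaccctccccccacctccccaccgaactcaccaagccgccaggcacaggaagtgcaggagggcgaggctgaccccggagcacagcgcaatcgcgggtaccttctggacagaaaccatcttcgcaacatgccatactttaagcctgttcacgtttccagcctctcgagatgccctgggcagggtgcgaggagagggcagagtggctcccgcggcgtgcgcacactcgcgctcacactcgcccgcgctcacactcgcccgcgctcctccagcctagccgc
Gabra4, chr5:71658259-71658558, minus strand: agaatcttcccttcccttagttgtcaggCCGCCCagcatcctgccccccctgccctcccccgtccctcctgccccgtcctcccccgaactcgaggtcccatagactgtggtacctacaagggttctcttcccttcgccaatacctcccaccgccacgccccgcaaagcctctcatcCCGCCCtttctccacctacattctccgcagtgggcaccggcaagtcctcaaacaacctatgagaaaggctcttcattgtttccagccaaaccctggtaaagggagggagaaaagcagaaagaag
Gabra2, chr5:71095800-71096099, minus strand: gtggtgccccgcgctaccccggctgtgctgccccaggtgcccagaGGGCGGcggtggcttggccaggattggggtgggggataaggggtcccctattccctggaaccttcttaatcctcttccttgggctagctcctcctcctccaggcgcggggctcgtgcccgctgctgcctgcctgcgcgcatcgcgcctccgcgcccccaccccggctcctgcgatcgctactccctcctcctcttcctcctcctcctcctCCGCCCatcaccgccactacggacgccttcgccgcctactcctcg
Gabrg1, chr5:70842568-70842867, minus strand: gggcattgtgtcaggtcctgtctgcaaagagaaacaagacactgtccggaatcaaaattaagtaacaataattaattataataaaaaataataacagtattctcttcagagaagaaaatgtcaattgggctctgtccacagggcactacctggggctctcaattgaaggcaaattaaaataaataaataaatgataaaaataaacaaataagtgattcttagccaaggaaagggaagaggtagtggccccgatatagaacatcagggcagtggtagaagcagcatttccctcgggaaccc

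Gabrb1 and Gabra4 ran in opposite directions, and their 5′ ends overlapped by 388 bases. Strand is not stated for the counting, so reads from that overlap cannot be assigned to either gene. The GC content of the promoter windows was 66.0% for Gabrb1, 58.7% for Gabra4, 70.0% for Gabra2 and 38.3% for Gabrg1. The GC box occurred 2 times in the Gabra4 window and 2 times in the Gabra2 window, and these letters were in neither of the other 2. RefSeq promoters were matched for 31 of the 46 receptor genes, in 38 windows. GGGCGG, searched on both strands, was in 19 of the 38 windows and in 35.66% of all 32851 promoter windows of the same length. The cAMP response half-site TGACG was in 13.2% of the receptor windows and 20.81% of all windows. The TATA box TATAAA was in 10.5% and 13.62%, and the Egr site GCGTGGGCG was in 0 of the 38 receptor windows and 0.61% of all windows. The Egr site ends in letters that begin the GC box, so matches to those 2 can overlap, and a match here only describes the sequence.

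The WT libraries held 10612290, 14041951 and 11774367 counts. The TG columns hold log2 values, read here as log2(FPKM + 1), where FPKM is reads per kilobase of transcript, scaled to the reads of the library. Steps in the low TG values gave 9160000 to 12740000 reads in TG NM-101 and 10200000 to 12900000 reads in TG placebo. Neuronal transcripts were abundant beside those of the labelled cell type. The 13 neuronal markers summed to 3621 to 4195 FPKM in TG NM-101 and 3950 to 4198 FPKM in TG placebo. The 13 markers of mature oligodendrocytes summed to 2072 to 3773 FPKM in TG NM-101 and 1577 to 4951 FPKM in TG placebo. No marker of either list was at 0 in all 6 TG libraries. TG placebo library 1 stood apart: its 6 choroid plexus markers summed to 4578 FPKM, against 8.20 and 13.8 FPKM in TG placebo libraries 2 and 3. TG NM-101 library 2 had 1040 FPKM of these markers, against 41.7 and 68.0 FPKM in TG NM-101 libraries 1 and 3. The nuclear RNA list, long noncoding RNAs such as Neat1, summed to 1177 and 1420 FPKM in TG placebo libraries 2 and 3 and to 234 to 438 FPKM in the other 4 TG libraries. It shares a long noncoding RNA with the neuronal list, so that RNA is in the sums of each list. Receptor genes whose call changes without TG placebo library 1 are given both ways. The fit without it sets TG NM-101 against TG placebo libraries 2 and 3 alone, the 2 with high nuclear RNA. That fit called 9.6% of all genes higher and 8.17% lower, against 0.134% called in all with every library. Its small adjusted p-values are to be read beside those shares.

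The first question was whether receptor genes differed between TG mice given NM-101 and TG mice given placebo. Most GABA-A subunit genes were higher with NM-101 by small amounts, while glutamate receptor genes went both ways. The test passed none of them: 0 of 38 receptor genes tested had an adjusted p under 0.05 by limma with Benjamini-Hochberg adjustment over 12699 genes, where 0.134% of all genes were called. Before adjustment, a p under 0.05 was reached by 8 receptor genes that were higher and 1 that was lower, against 10.7% of all genes higher and 4.17% lower. The 3 TG NM-101 values lay wholly above the 3 TG placebo values for 9 receptor genes and wholly below for 3, against 13.6% and 5.98% of all genes. The difference was positive for 24 receptor genes and negative for 14, where 55.5% of all genes were positive, with a median of 0.11 on the log2(FPKM + 1) scale, against 0.03 over all genes. In bulk RNA of this kind, fewer cells of a type and less RNA per cell cannot be told apart. Differences on this scale understate the change of low genes. The fit was also run on values simulated with the means and spreads of 12664 genes. It recovered 65.2% of log2 changes of 1 and 15.2% of log2 changes of 0.5. Most changes of the smaller size would thus not be called.

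**Figure D1:**
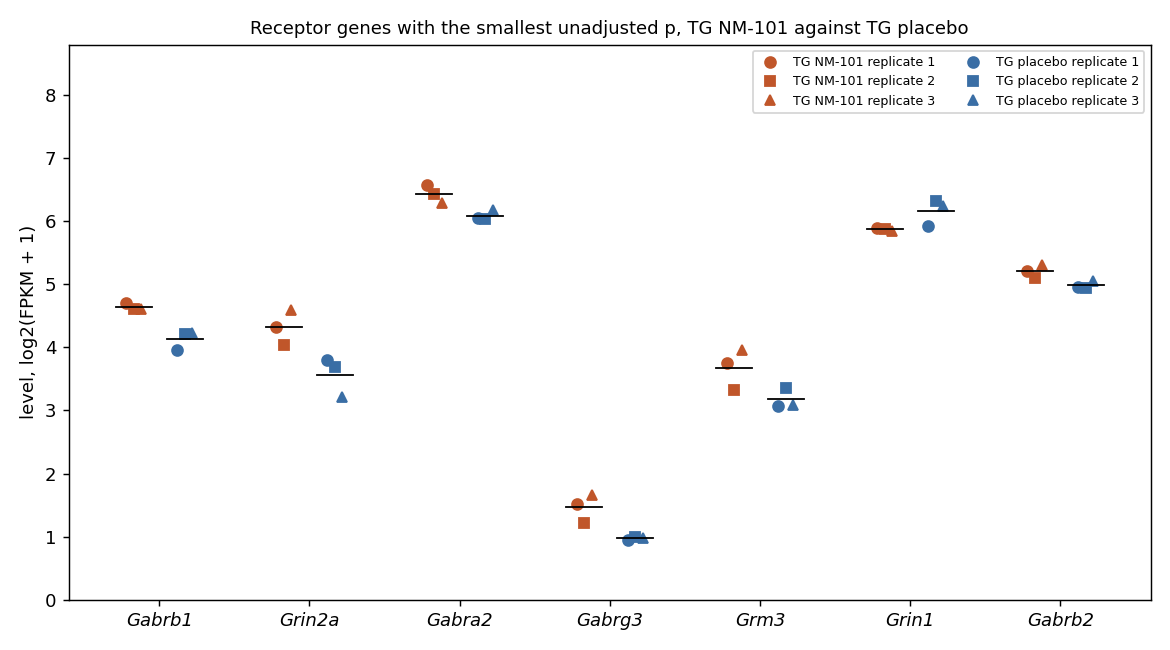
Level in log2(FPKM + 1) of the receptor genes with the smallest unadjusted p that are reported here, in each TG NM-101 library (left of each pair) and each TG placebo library (right), with a line at the mean of 3. The values of Gabrb1, Grin2a, Gabra2, Gabrg3 and Gabrb2 lie higher in all 3 TG NM-101 libraries, those of Grin1 lie lower, and those of Grm3 overlap.

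The other 8 members did not pass the filter on low values, a mean of at least 1, and were not tested. They were Gabra6, Gabre, Gabrq, Gabrr1, Gabrr2, Gabrr3, Grin3b and Grm6. Grm6, the metabotropic receptor of retinal ON bipolar cells, and Gabrr3, a rho subunit known from retina, were at 0 in all 9 libraries. A count of 0 allows up to 0.214 to 0.283 CPM (counts scaled to the library total) in the WT libraries, taking 3 counts as the limit and covering counting error only. Gabra6, the alpha subunit of cerebellar granule cells, had 0, 1 and 0 counts in WT. Gabrr2, a rho subunit, was the highest of the 8, at 1.26, 0.68 and 0.93 in TG NM-101 and 1.80, 0.75 and 0.20 in TG placebo on the log2(FPKM + 1) scale.

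The alpha subunits of the GABA-A receptor carry the benzodiazepine selectivity of the channel and direct where it sits. All 5 tested alpha genes had a positive difference, with a median of 0.29, and 3 had an unadjusted p under 0.05. Gabra2, the alpha subunit common on the axon initial segment, was at 6.57, 6.43 and 6.28 in TG NM-101 and 6.04, 6.04 and 6.19 in TG placebo. Every TG NM-101 library was above every TG placebo library, by 0.34 ± 0.102 (SE) on average, with a limma adjusted p of 0.188. Gabra5, which is abundant in hippocampus and mostly extrasynaptic, was at 6.38, 6.37 and 6.27 in TG NM-101 and 6.33, 5.96 and 5.84 in TG placebo. There TG placebo library 1 lay within the TG NM-101 range while the other 2 lay below it. Without that library the difference in Gabra5 was 0.44 with a limma adjusted p of 0.0103, against 0.29 and 0.336 with it. Gabra3 and Gabra4 differed by 0.23 and 0.08, and their groups overlapped.

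Beta subunits form part of the GABA binding site. Gabrb1 and Gabrb2 were higher in every TG NM-101 library than in any TG placebo library. Gabrb1 stood at 4.70, 4.61 and 4.61 in TG NM-101 and at 3.95, 4.22 and 4.23 in TG placebo. The groups were separate, and the average difference was 0.51 ± 0.108 (SE), or 1.42-fold in FPKM + 1. Its limma adjusted p was 0.104 with all 6 libraries and 0.0147 without TG placebo library 1, where the difference was 0.42. Gabrb2, a subunit of many synaptic GABA-A receptors, stood at 5.21, 5.09 and 5.31 in TG NM-101 and at 4.96, 4.95 and 5.05 in TG placebo. The groups were close but separate, with a difference of 0.22 ± 0.0949 (SE) and a limma adjusted p of 0.334.

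Of the gamma and other GABA-A genes, 4 of 9 were tested. Gabrg3, a minor gamma subunit, was at 1.51, 1.22 and 1.65 in TG NM-101 and 0.95, 1.00 and 0.98 in TG placebo. These levels were low and did not overlap, with a difference of 0.49 ± 0.163 (SE) and a limma adjusted p of 0.237. Gabrd, whose subunit replaces gamma in extrasynaptic receptors that respond to ambient GABA, was the single GABA-A gene tested with a negative difference. It was at 3.33, 3.29 and 3.72 in TG NM-101 and 3.52, 3.98 and 3.92 in TG placebo. TG placebo library 1 lay inside the TG NM-101 range, and the difference was -0.36 with a limma adjusted p of 0.345, or -0.51 with 0.0336 without that library. Over the 12 GABA-A genes tested, 11 differences were positive and the median was 0.25, against 55.5% of all genes positive and a median of 0.03.

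The GABA-B receptor needs both of its subunits at the membrane, one to bind GABA and one to signal. Gabbr1 was the second highest receptor gene over the TG libraries, at 7.10, 7.21 and 7.18 in TG NM-101 and 6.99, 7.11 and 6.98 in TG placebo. Gabbr2 was at 5.28, 5.20 and 5.48 in TG NM-101 and 5.24, 5.22 and 5.01 in TG placebo. Both pairs of groups overlapped, with differences of 0.14 and 0.16.

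**Figure D2:**
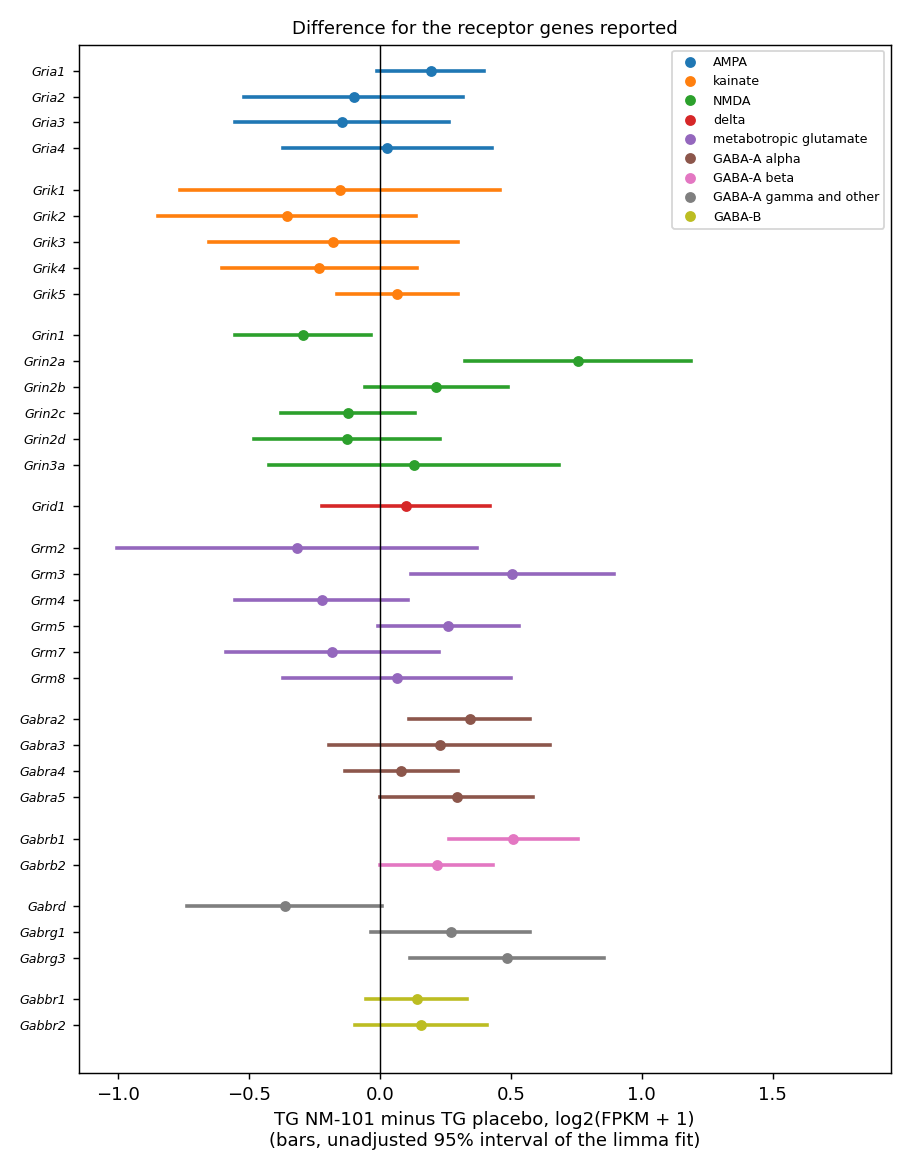
Difference in log2(FPKM + 1), TG NM-101 minus TG placebo, for the tested receptor genes reported here, coloured by class, with unadjusted 95% intervals from the limma fit. The GABA-A genes lie to the right of 0 except Gabrd, and the glutamate receptor genes lie on both sides, with Grin2a farthest right.

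Among the AMPA receptor genes, 2 of 4 differences were positive. Gria1, which encodes the AMPA subunit most tied to activity-driven insertion, was the highest receptor gene of all. It was at 7.45, 7.57 and 7.51 in TG NM-101 and 7.22, 7.43 and 7.30 in TG placebo. All 3 TG NM-101 libraries were higher, by 0.19 ± 0.0907 (SE), with a limma adjusted p of 0.360. Gria2, the subunit that makes the channel impermeable to calcium once its RNA is edited, was at 6.74, 6.58 and 6.56 in TG NM-101 and 6.27, 6.94 and 6.97 in TG placebo. Its TG placebo libraries lay on both sides of the TG NM-101 libraries. With all libraries the difference was -0.10 with a limma adjusted p of 0.822. Without TG placebo library 1 it was -0.33 with 0.0341. For Gria3 the difference was -0.14 with a limma adjusted p of 0.729, and -0.37 with 0.0211 without that library. Only 1 of 4 AMPA differences was positive in that comparison.

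The kainate receptor genes had 1 positive difference out of 5 and a median of -0.18, and no gene of the class had separate groups. Without TG placebo library 1 there were 0 positive differences out of 5, with a median of -0.41. Grik1, Grik2 and Grik3 were then lower in every TG NM-101 library than in TG placebo libraries 2 and 3, as were 23.2% of all genes. Grik5, an auxiliary kainate subunit that needs a partner of the Grik1 to Grik3 kind, was at 6.13, 6.20 and 6.02 in TG NM-101 and 5.89, 6.13 and 6.14 in TG placebo. Grik4, the other subunit of that type, was at 4.14, 4.16 and 3.76 in TG NM-101 and 4.54, 4.24 and 3.98 in TG placebo. For both genes the groups overlapped. Grik2, the main channel-forming kainate subunit of hippocampal mossy fibres, was at 3.39, 3.58 and 3.41 in TG NM-101 and 3.28, 4.05 and 4.12 in TG placebo. TG placebo library 1 was the lowest of the 6 and the other 2 were the highest. The difference was -0.36 with a limma adjusted p of 0.458. Without that library it was -0.63 with a limma adjusted p of 0.00576, where 8.17% of all genes were called lower.

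NMDA receptors pair the obligatory Grin1 subunit with Grin2 subunits that set how long the current lasts. Grin2a, which gives the faster currents typical of mature synapses, had the largest difference of any receptor gene. It was at 4.32, 4.04 and 4.60 in TG NM-101 and 3.80, 3.69 and 3.21 in TG placebo. The groups did not overlap, and the difference was 0.76 ± 0.189 (SE), or 1.69-fold in FPKM + 1, with a limma adjusted p of 0.142. Without TG placebo library 1 it was 0.87 with a limma adjusted p of 0.0152. Grin2b, the subunit that dominates early in development, was at 4.24, 4.42 and 4.37 in TG NM-101 and 3.93, 4.13 and 4.31 in TG placebo, which overlapped. Grin1 itself was at 5.89, 5.87 and 5.85 in TG NM-101 and 5.92, 6.33 and 6.24 in TG placebo. All 3 TG NM-101 libraries were lower, TG placebo library 1 by very little. The difference was -0.29 ± 0.115 (SE) with a limma adjusted p of 0.286, and -0.42 with 0.0100 without that library. An antisense gene, Grin1os, overlaps exons of Grin1, and with strand not stated its reads cannot be told apart from those of Grin1. Exons of 20 receptor genes overlap another annotated gene, on the opposite strand for 14 of them. The other tested NMDA genes, Grin2c, Grin2d and Grin3a, differed by -0.12, -0.13 and 0.13, with overlapping groups. Without TG placebo library 1 these values were -0.20, -0.23 and -0.14, so the sign of Grin3a turned. Grin2c and Grin2d were then lower with separate groups, as were 23.2% of all genes.

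The ratio of the Grin2 subunits was looked at within each library, where scaling of the library cancels. Transcript length does not cancel. The WT values rest on annotated lengths that may differ from those behind the TG values, so WT ratios and shares are not on quite the same measure. The log2 ratio of Grin2a to Grin2b was 0.09, -0.40 and 0.24 in TG NM-101, -0.14, -0.47 and -1.19 in TG placebo and -0.50, -0.74 and -0.49 in WT. TG NM-101 library 2 lay within the range of the TG placebo libraries, and the 3 WT ratios lay below all 3 TG NM-101 ratios. Grin1 made up 51.9%, 51.7% and 47.8% of the summed NMDA subunit level in TG NM-101, and 58.5%, 61.5% and 61.0% in TG placebo. It made up 55.5%, 55.3% and 61.6% in WT. The Grin2a share averaged 16.8% ± 2.86 in TG NM-101, 9.54% ± 2.97 in TG placebo and 10.4% ± 1.56 in WT (SD, n = 3 each). In every TG NM-101 library the Grin1 share was lower, and the Grin2a share higher, than in any TG placebo library. These shares were not tested: an exact permutation test of 3 against 3 cannot give a two-sided p below 0.1.

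**Figure D3:**
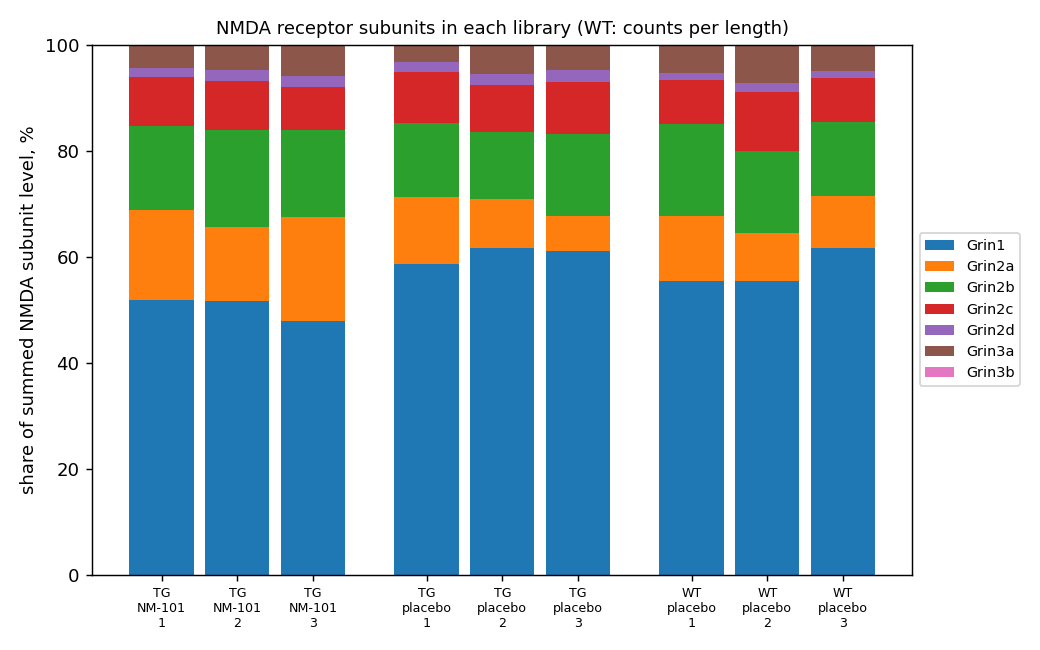
Share in percent of each NMDA subunit in the summed linear level of the 7 subunit genes, per library, for TG NM-101, TG placebo and WT placebo (WT from counts divided by length). Grin1 takes 47.8% to 51.9% in TG NM-101 and 58.5% to 61.5% in TG placebo.

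Of the delta receptor genes, Grid1, which is widespread in forebrain, was at 4.25, 4.40 and 4.61 in TG NM-101 and 4.07, 4.49 and 4.40 in TG placebo. The groups overlapped, and the difference was 0.10 with all libraries and -0.03 without TG placebo library 1.

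Metabotropic glutamate receptors differ in the G protein they use and in where they sit. Of 7 tested genes, 3 had a positive difference, or 2 without TG placebo library 1. Grm3, a receptor that lowers cAMP and is found on astrocytes as well as neurons, was at 3.76, 3.32 and 3.96 in TG NM-101 and 3.07, 3.36 and 3.09 in TG placebo. The lowest TG NM-101 library was just under the highest TG placebo library, and the difference was 0.51 ± 0.171 (SE) with a limma adjusted p of 0.242. Grm5, the main postsynaptic receptor of the class in forebrain, was at 5.16, 5.22 and 5.31 in TG NM-101 and 4.73, 5.09 and 5.09 in TG placebo. Its groups were separate, with a difference of 0.26 and a limma adjusted p of 0.346. Grm2, a presynaptic receptor that limits glutamate release, was at 3.48, 3.15 and 3.31 in TG NM-101 and 2.94, 3.80 and 4.16 in TG placebo. The 3 TG placebo libraries lay on both sides, with a difference of -0.32 and a limma adjusted p of 0.634, and -0.66 with 0.0126 without TG placebo library 1. Grm4, a presynaptic receptor of low level here, was lower in every TG NM-101 library than in any TG placebo library. Its difference was -0.22, and the limma adjusted p was 0.489.

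The receptor classes differed in how the TG placebo libraries lay. The median GABA-A gene was below the TG NM-101 mean in each of TG placebo libraries 1, 2 and 3, at -0.31, -0.27 and -0.16. The median glutamate receptor gene was at -0.30 in TG placebo library 1 and at 0.16 and 0.17 in libraries 2 and 3. For kainate genes these values were -0.23, 0.38 and 0.44. TG placebo library 1 was thus low for both transmitters, while libraries 2 and 3 were low for GABA-A genes and high for glutamate receptor genes. TG placebo library 1 held the lowest of the 3 TG placebo values in 28 of 38 receptor genes, or 73.7%, against 43.6% of all genes tested. Nuclear RNA markers had medians of -0.49, 1.28 and 1.84 in the same 3 libraries, choroid plexus markers 2.87, -1.30 and -1.29, and mature oligodendrocyte markers 0.80, -0.57 and -0.69. The part of these markers in the receptor values was not tested.

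**Figure D4:**
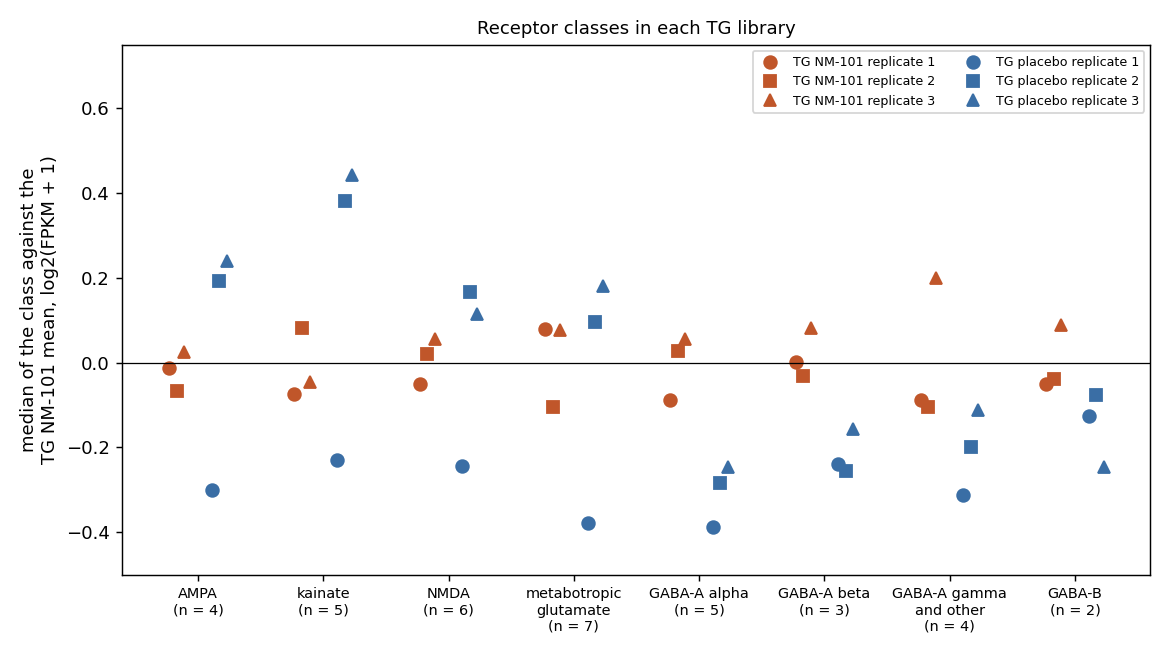
Median of each receptor class other than delta in each TG library, in log2(FPKM + 1) against the TG NM-101 mean of each gene. TG NM-101 is left of TG placebo, and n is the number of genes tested. The AMPA, kainate, NMDA and metabotropic medians of TG placebo replicate 1 are below 0 and those of replicates 2 and 3 above it, while the GABA-A medians of all 3 TG placebo replicates are below 0.

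Leaving out TG placebo library 1 gave 9 of 38 receptor genes an adjusted p under 0.05 by limma with Benjamini-Hochberg adjustment, against 0 with it. Gabra5, Gabrb1 and Grin2a were then higher, and Grik2, Grin1, Grm2, Gria3, Gabrd and Gria2 were lower. Without that library 9.6% of all genes were called higher and 8.17% lower, against 0.134% called in all with it. In that comparison 19 differences were positive and 19 negative, where 54.3% of all genes were positive, and the median was 0.01, against 0.03 over all genes. The groups were separate and higher for 10 receptor genes and separate and lower for 13, against 28.0% and 23.2% of all genes. Among the 24 glutamate receptor genes 6 differences were then positive, and among the 12 GABA-A genes 11 were.

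Markers of astrocytes and microglia had higher values in TG NM-101 alongside the GABA-A genes. All 9 astrocyte markers were higher in TG NM-101, with a median difference of 0.39 and summed levels of 1414 to 1446 FPKM in TG NM-101 and 1009 to 1197 FPKM in TG placebo. Sox9, a transcription factor of astrocytes, passed the test, at a difference of 0.77 and a limma adjusted p of 0.0425. Of 8 microglial markers, 7 had positive differences, and their sums were 308 to 312 FPKM in TG NM-101 and 235 to 255 FPKM in TG placebo. The 13 neuronal markers had a median difference of 0.01, with 7 positive, and summed to the overlapping ranges given above. The lowest neuronal difference, -1.69, was that of the RNA shared with the nuclear RNA list. All 8 endothelial and mural markers had negative differences, with a median of -0.22 and sums of 47.0 to 55.1 FPKM in TG NM-101 and 52.7 to 66.7 FPKM in TG placebo. Their part in the receptor differences was not tested.

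Proteins that bind these receptors were read from a separate list of 56 genes, all tested. None was called by limma, 37 had a positive difference with a median of 0.11, and 16 higher and 2 lower genes had a p under 0.05 before adjustment. The shares over all genes were 55.5% positive, 10.7% higher and 4.17% lower. The 21 postsynaptic scaffold genes of excitatory synapses held 10 of the 16 higher genes and also the 2 lower ones. Their median was 0.28, with 15 differences positive and 6 negative. Camk2a, the kinase subunit that stores synaptic calcium signals, was at 10.22, 10.22 and 10.27 in TG NM-101 and 9.97, 9.78 and 9.68 in TG placebo, with a limma adjusted p of 0.113. Dlgap1, which links PSD-95 to Shank proteins, had a difference of 0.38 (limma adjusted p 0.110), and its groups did not overlap. Among 14 AMPA auxiliary genes, 7 differences were positive, and Cnih2 and Frrs1l, which help AMPA receptors leave the endoplasmic reticulum, differed by 0.50 and 0.52. Of the 12 GABA-A scaffold and trafficking genes, 9 were positive, including Iqsec3, an exchange factor at inhibitory synapses, at 0.43 with a limma adjusted p of 0.117. Kctd8 and Kctd12, auxiliary GABA-B subunits, differed by 0.35 and 0.26, and Neto2 and Lrp8 of the kainate and NMDA list by 0.14 and -0.14.

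Genes that move or make the transmitters formed another list, with 15 of 16 tested and 8 positive. None was called by limma, and 4 higher and 0 lower genes had a p under 0.05 before adjustment, against 10.7% and 4.17% of all genes. Slc1a2, the main glutamate transporter of astrocytes, was at 8.95, 8.75 and 9.05 in TG NM-101 and 8.26, 8.26 and 8.19 in TG placebo. Every TG NM-101 library was above every TG placebo library, by 0.68 ± 0.0992 (SE), with a limma adjusted p of 0.0561. Glul, the glutamine synthetase of astrocytes, differed by 0.51, Gad2, a GABA-synthesising enzyme, by 0.23 and Abat, which breaks down GABA, by 0.29. The median over the list was 0.00.

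The second question was how TG mice given placebo compared with WT mice given placebo. The WT columns hold counts and the TG columns log2 values, so the WT counts were turned into log2(RPKM + 1) with each library's total and annotated transcript lengths, and no test was made. Receptor genes took 0.541% to 0.628% of the WT counts. In each kind of data Gria1 and Gabbr1 were the 2 highest receptor genes per length, and Gria2 was the third. By WT CPM, without division by length, Gria2 came before Gabbr1, at means of 679 and 583. The libraries were read from the 3′ end, so counts may not grow with transcript length. Dividing by length may then shift levels and shares between genes. Gria1 had 9470, 8215 and 8841 counts in the WT libraries, Gria2 7460, 8712 and 8410, and Gabbr1 6860, 7577 and 6617. At the other end of the tested genes, Gabrg3 had 22, 21 and 11 counts.

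Of the 37 receptor genes that passed a mean of at least 1 over the 9 libraries, the TG placebo values lay wholly above the WT values for 10 and wholly below for 8. Among all 12410 genes these shares were 20.8% and 15.9%. The median difference over the receptor genes was 0.08, against 0.05 over all genes, and 21 differences were positive. The largest was Gabrb1, at a mean of 4.13 ± 0.159 in TG placebo and 1.76 in WT, where it had 369, 430 and 391 counts. Gabrb2 went the other way, at 4.99 ± 0.0535 in TG placebo and 6.39 in WT, a difference of -1.40. Grik4, Gabra2, Grik2 and Grid1 were higher in TG placebo by 1.25, 1.20, 1.06 and 0.99. A transcript length that differs from the one the authors used gives such a difference in the same direction in every library. Gabrb1 was divided by 13737 bases, while 1977 bases would give equal levels in TG placebo and WT, and for Gabra2 these were 5852 and 2499 bases. For Gabrb2 they were 3989 and 10733 bases. A wrong length and a difference between the genotypes cannot be told apart here.

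Receptor composition in WT followed the same lengths. Gabrb1 made up 19.3% ± 1.35 of the beta genes in TG NM-101, 15.9% ± 1.23 in TG placebo and 1.50% ± 0.0516 in WT (SD, n = 3 each). Gabra2 made up 29.8% ± 3.20 of the alpha genes in TG NM-101, 28.7% ± 1.56 in TG placebo and 11.3% ± 0.485 in WT. Among glutamate receptors Gria1 took 55.6% ± 2.41 of the AMPA genes in TG NM-101, 50.6% ± 5.40 in TG placebo and 47.0% ± 3.92 in WT. Grik5 took 68.1% ± 0.210 of the kainate genes in TG NM-101, 62.1% ± 0.441 in TG placebo and 72.4% ± 1.28 in WT. The Grik5 share was higher in every TG NM-101 library than in any TG placebo library, although its level overlapped between those groups. Grm5 was the leading metabotropic gene, with 47.2% ± 3.59 in TG NM-101, 41.2% ± 0.741 in TG placebo and 54.4% ± 5.78 in WT.

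TG mice given NM-101 were set against WT mice in the same way, with the same WT libraries as above. Their values lay wholly above WT for 13 of the 37 receptor genes and wholly below for 4, against 23.5% and 13.1% of all genes. The median difference was -0.05, against 0.05 over all genes, and 18 differences were positive. Gabrb1 was again the farthest above WT, with a difference of 2.88, and Gabrb2 the farthest below, with -1.18. All 6 NMDA genes that passed this filter were above WT in the mean, with a median of 0.34, as were 7367 of all 12410 genes. In TG placebo 5 of these 6 NMDA genes were above WT, with a median of 0.29. Grin2a was above WT by 0.94 in TG NM-101, with separate groups. In TG placebo Grin2a was above WT by 0.19, with overlapping groups. The WT side again rests on annotated lengths that may differ from those of the authors.

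Transcripts of 1 gene were split in different ways between libraries, which is why sums per gene were used. Gria1 has 3 transcripts in the table. The longest was at 3.99, 0.01 and 5.44 in TG NM-101 and 1.93, 0.02 and 0.00 in TG placebo, and had 0 counts in each WT library. The shortest was at 4.78, 5.77 and 0.02 in TG NM-101 and 5.36, 5.58 and 5.80 in TG placebo. The sum moved by far less, between 7.22 and 7.57 over the 6 TG libraries.

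**Figure D5:**
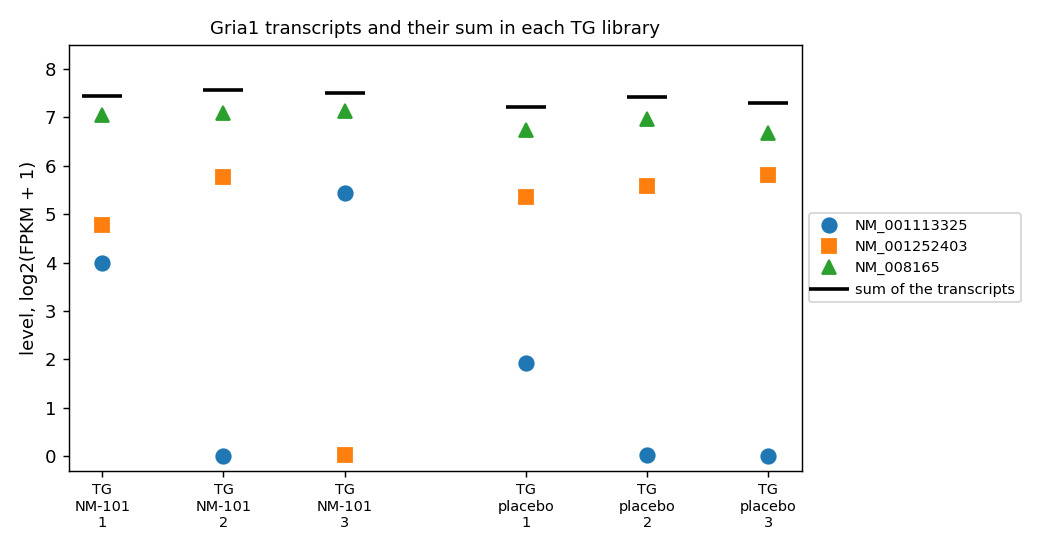
Level in log2(FPKM + 1) of the 3 Gria1 transcripts and of their sum in each TG library. The sum lies between 7.22 and 7.57, while the longest transcript lies between 0.00 and 5.44.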

How the data were processed

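RNA was sequenced from 9 mouse brain samples in 3 groups of 3. Per the labels, RNA extraction used a kit meant for paraffin-embedded, fixed tissue, and QuantSeq libraries read from the 3′ end. Bowtie2 and mm10 are listed in the submitters' processing notes. For the counting program, its strand setting, the normalization and the annotation, the name is not given in the sources used here. As deposited, the table of the authors lists 33299 transcripts. Its WT columns, as deposited by the authors, hold raw counts and the TG columns hold log2 values. The deposited log2 values are read as log2(FPKM + 1) from the values alone: over 7962 transcripts they followed WT CPM (slope 0.945) and transcript length (slope -0.89) on log2 scales. TG depths come from steps in low values, with 86.0% to 87.6% of values within 0.2 of a whole read.

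Transcripts were named from a RefSeq gene table (32394 named, 905 not), returned to the linear scale, summed per symbol and written as log2(value + 1). Genes with a mean of at least 1 over the 6 TG samples, 12699 in all, entered a limma fit (limma 3.58.1, R 4.3.3, trended variance, robust). Benjamini-Hochberg adjustment ran over all of them, with calls at 0.05. The fit was tested on 5 sets of simulated data, with the share of changes recovered given above. WT counts were divided by library total and by GENCODE M21 length. Alternatives were the pseudocount, filter, scaling, gene summary, variance model, replicate block and leaving out each sample.

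The members and all lists were chosen with earlier results of these data known. Values in every sample are given for the 2 highest genes per class, any called gene, the 8 with the smallest p, and the 6 with the largest separate TG placebo to WT difference, 24 genes in all, some of which are not reported here; of the partner and marker lists, called genes or the 2 with the smallest p are eligible to be named. Gabra3, Gabra4, Gabrg1, Gria3, Grin2c, Grin2d, Grin3a and Grm4 and the members under the filter were named outside that rule. Replicate numbers are not said to pair the samples, and none was assumed. Deviations of same-numbered samples correlated at 0.045, -0.027 and -0.018, which cannot exclude a pairing with little effect on expression. Pairs of TG libraries shared 0.555% to 0.841% identical values and pairs of WT libraries 2.97% to 3.40%, so no library was treated as a duplicate.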

Additional observations from a re-analysis of the deposited data

How the results depend on the processing

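With all libraries, 0 receptor genes were called between TG NM-101 and TG placebo, also under the other pseudocount, filters, scaling, gene summary and variance model, and with the replicate block (0 called). Leaving out 1 library gave 0 to 9, the 9 without TG placebo replicate 1. The median over receptor genes, 0.11, ranged from 0.01 to 0.18 when 1 library was left out, and that of GABA-A genes, 0.25, from 0.16 to 0.28. The lowest GABA-A median, 0.16, was without TG NM-101 replicate 3, where 11 GABA-A differences were still positive. Without that library 3 higher receptor genes had an unadjusted limma p under 0.05, against 8 with all libraries. The genes with the smallest p that are named here kept their sign under every alternative run. Against WT, the median was -0.081 to 0.25 for TG placebo and -0.03 to 0.02 for TG NM-101 with 1 library left out, and 0.11 for TG NM-101 with the highest transcript per gene. That choice also moved shares, to 59.2% in TG NM-101 and 55.9% in WT for Gria1, to 69.0% in TG NM-101, 63.4% in TG placebo and 74.6% in WT for Grik5, to 38.9%, 49.1% and 43.3% in the same order for Grin1, and to 43.3% in TG NM-101 and 40.3% in TG placebo for Grm5. Without division by length the WT shares were 59.2% for Grik5, 47.4% for Grin1, 16.5% for Gabra2 and 83.6% for Gabbr1. The cause of the change without TG placebo replicate 1 was not tested. The replicate numbers are not said to pair the samples, and with the block an unadjusted p under 0.05 was reached by 8 higher and 2 lower genes. TG depth is known only from steps, and levels of different genes depend on the lengths used.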
